A study of Homo sapiens with 6 samples.

Results

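TXNRD1 encodes thioredoxin reductase 1, and it was examined here together with 9 further genes of the thioredoxin system and the NRF2 antioxidant response: TXN, SRXN1, NQO1, HMOX1, GCLC, GCLM, SLC7A11, NFE2L2 and KEAP1. A probe was taken as belonging to one of these genes when the accession listed for it was a RefSeq transcript of that gene. That match used no measured value, but the genes themselves were chosen with earlier results of these arrays known. Each of the 10 genes had exactly 1 probe, which gave 10 of the 50599 probes on the array and 10 of the 21743 genes matched to a probe. A probe was tested when it was well above background, by the scanner software's own flag, on both arrays of at least 1 group. The probes of 8 genes met that condition, and those of NFE2L2 and NQO1 did not. The study itself picked TXNRD1 for follow-up from these arrays, so the TXNRD1 values below are not independent evidence of its direction.

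The cells were MDA-MB-231, an established line of human breast cancer with a mesenchymal appearance. They were reverse transfected with a precursor of hsa-miR-205-5p, with one of hsa-miR-214-3p or with a scrambled negative control precursor, all in the same medium, and RNA was collected 72 h later. Each group had 2 replicates, each hybridized to its own one-color Agilent gene expression array, and all 6 arrays lay on 1 slide and shared 1 scan. The labels do not state that replicates were separate cultures, so p-values measure only the spread between these arrays, which may be technical. All values come from 1 cell line, and the replicates of a group lay side by side on the slide, so slide position and group cannot be told apart.

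Levels are given as normalized log2 signal, that is, log2 of the scanner's processed signal minus the 75th percentile of the same array. A level of 0 thus equals that percentile, and a difference of 1 is 2-fold. Between 31.7% and 38.0% of probes per array were well above background and 0 spots were saturated. Among markers of the cell line, VIM, CD44, AXL and CAV1 were well above background on all 6 arrays, and ESR1 and PGR on 0. The epithelial genes CDH1, EPCAM, GATA3, KRT19 and CLDN4, listed as low in these cells, were also well above background on all 6 arrays. KRT19 (9.26 to 10.75) and CLDN4 (7.79 to 9.03) were bright, which goes against that list. CDH1 (−1.47 to 0.87), GATA3 (0.10 to 0.695) and EPCAM (0.35 to 3.21) were detected but lay below VIM (7.47 to 7.64). Because each array measured bulk RNA, fewer cells with a transcript and less of it per cell cannot be told apart.

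NRF2, the product of NFE2L2, is a transcription factor that is kept low in resting cells by KEAP1, an adaptor that hands it to a CUL3 ubiquitin ligase. When KEAP1 is modified by oxidants or electrophiles, NRF2 builds up and binds antioxidant response elements with small MAF proteins. Its targets include the thioredoxin system, in which TXNRD1 uses NADPH to reduce thioredoxin, and the genes of glutathione synthesis. In many tumors the pathway is active and protects cells from oxidative stress and drugs.

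The mature sequences of both miRNAs, taken from the RefSeq miRNA annotation on GRCh38.p14, are shown because the precursor is what the labels distinguish the groups by. Capitals mark the seed, bases 2 to 8, through which a miRNA pairs with its target transcripts.
hsa-miR-205-5p: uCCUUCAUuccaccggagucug
hsa-miR-214-3p: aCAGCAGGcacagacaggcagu
The former lies on the plus strand at chr1:209432166-209432187 and the latter on the minus strand at chr1:172138816-172138837. Their seeds differ, and a transcript that pairs with the full seed carries ATGAAGG for hsa-miR-205-5p and CCTGCTG for hsa-miR-214-3p. Transcript sequences of the 10 genes were not analysed here, so no seed match was searched in them.

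TXNRD1 was the one member called in any comparison, and it was lower with hsa-miR-205-5p than in either other group. Its level was 0.33 and 0.26 in the hsa-miR-205-5p replicates, 3.05 and 3.14 in the hsa-miR-214-3p replicates, and 2.81 and 3.51 in the scrambled control replicates. Both hsa-miR-205-5p arrays were thus far below the other 4, whereas the hsa-miR-214-3p values lay between the 2 control values. In processed signal, a linear intensity before any scaling between arrays, the hsa-miR-205-5p arrays gave 52.3 and 42.1, against 353.7 and 662.4 in the control and 400.9 and 321.6 with hsa-miR-214-3p. The probe was well above background on all 6 arrays, so the low values were measured and not at the limit of detection.

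The control mean of TXNRD1 was 3.16 ± 0.50 (SD, n = 2), against 0.30 ± 0.05 (SD, n = 2) for the hsa-miR-205-5p arrays. The difference was −2.87 (SE 0.26, 95% interval −3.52 to −2.22), a fall of 7.3-fold, with limma adjusted p = 0.008. Among the 11974 genes tested, 39 had a lower difference than TXNRD1. The call rested on the second hsa-miR-205-5p array: without it the difference was −2.84 with limma adjusted p = 0.0559, in a fit in which limma called 0 genes of the whole array and 1101 were lower at an unadjusted p under 0.05 and 2-fold. The methods' t-test called TXNRD1 before adjustment for multiple tests and not after it.

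With hsa-miR-214-3p, the mean TXNRD1 level was 3.09 ± 0.06 (SD, n = 2), which differed from the control by −0.07 (95% interval −0.72 to 0.58, limma adjusted p = 0.896). That interval does not show that the level was the same, since it allows a change of up to about 0.72 in the direction of a fall. The difference was 0.28 without the second control replicate and −0.42 without the first, so its sign rested on which control array was used. Set directly against hsa-miR-214-3p, TXNRD1 with hsa-miR-205-5p differed by −2.80 (SE 0.26, limma adjusted p = 0.00401), 7.0-fold lower. In the order of levels, hsa-miR-205-5p stood lowest, and the hsa-miR-214-3p and control groups above it did not differ beyond their spread.

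The study's qRT-PCR primers for TXNRD1 are shown because they are listed for the same transcript accession as the array probe.
TXNRD1 forward: cagtttgcagaacagcggag
TXNRD1 reverse: gccctcctgataagccttcaa
The qRT-PCR values themselves were not used here.

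**Figure D1:**
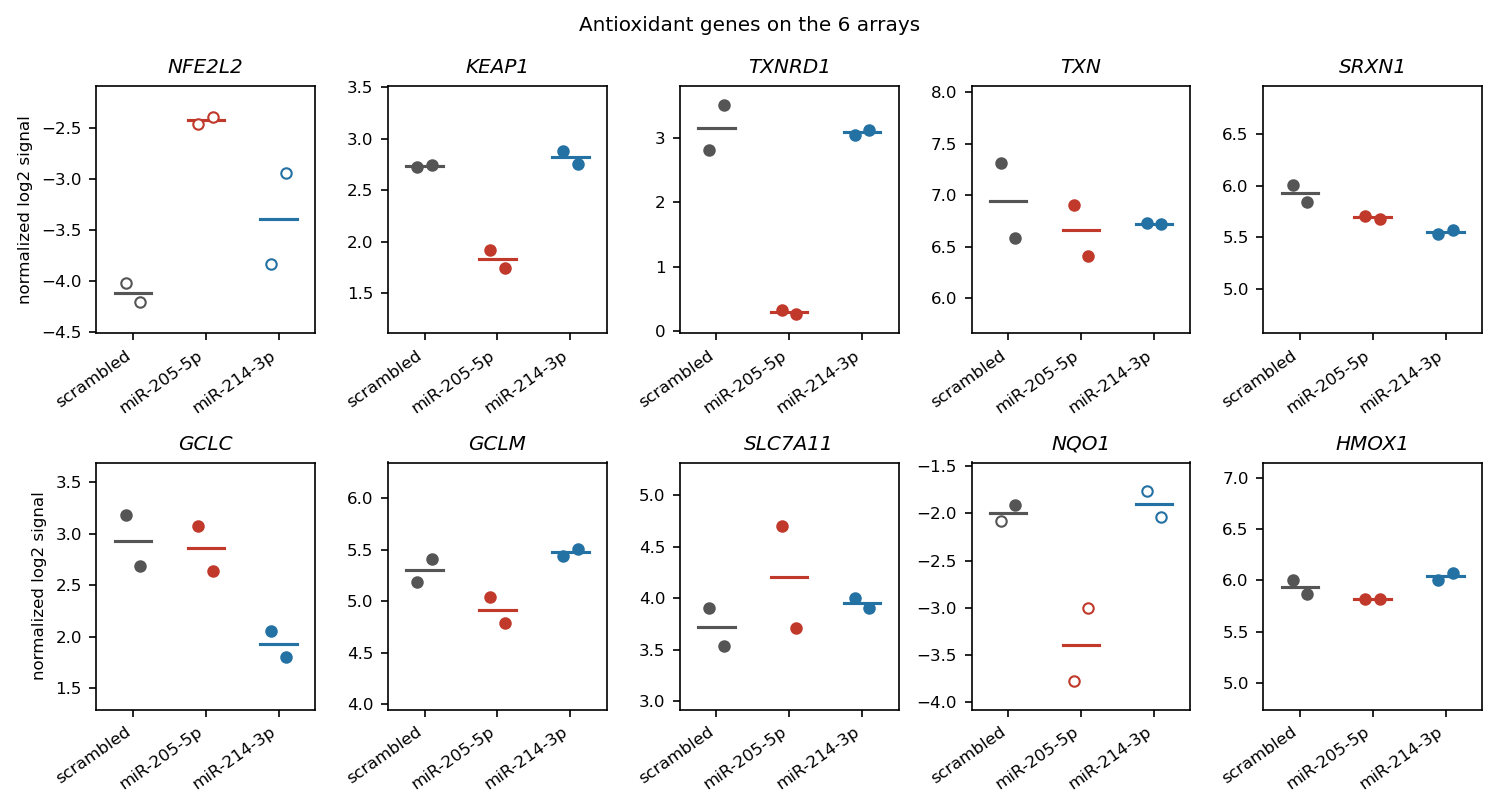
Normalized log2 signal (y axis, each panel with its own range) of the 10 genes on the 6 arrays, grouped by precursor on the x axis. Filled points were well above background, open points were not, and bars are group means of 2 arrays. TXNRD1 with hsa-miR-205-5p sits near 0.30 while the other 4 arrays lie between 2.81 and 3.51.

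TXN, or thioredoxin, is the substrate of TXNRD1 and did not pass the test in any comparison. It reduces protein disulfides and passes electrons to peroxiredoxins, and its level was 6.91 and 6.41 with hsa-miR-205-5p, 6.73 and 6.72 with hsa-miR-214-3p, and 7.31 and 6.58 in the control. The groups overlapped, and the hsa-miR-205-5p difference from the control was −0.28 (95% interval −1.05 to 0.48, limma adjusted p = 0.526). The 2 control arrays of TXN differed by 0.73 from each other, more than either treated group differed from the control. Without the first control replicate the difference turned to 0.08 with hsa-miR-205-5p and to 0.14 with hsa-miR-214-3p.

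SRXN1, or sulfiredoxin, returns overoxidized peroxiredoxins to their active form. Its level was 5.71 and 5.68 with hsa-miR-205-5p, 5.53 and 5.57 with hsa-miR-214-3p, and 6.01 and 5.84 in the control, so that both control arrays were the highest. The differences from the control were −0.23 (95% interval −0.62 to 0.16, limma adjusted p = 0.324) and −0.38 (95% interval −0.76 to 0.01, limma adjusted p = 0.234). Neither passed the test.

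KEAP1, the repressor of NRF2, was the other member whose adjusted p fell under 0.05 against the control. Its level was 1.92 and 1.74 with hsa-miR-205-5p, 2.88 and 2.76 with hsa-miR-214-3p, and 2.72 and 2.75 in the control. The hsa-miR-205-5p arrays stood below all 4 others. The difference from the control was −0.91 (SE 0.16, 95% interval −1.31 to −0.50, limma adjusted p = 0.0208), which is 1.87-fold and therefore short of the 2-fold limit for a call. With hsa-miR-214-3p the difference was 0.09 (95% interval −0.32 to 0.49, limma adjusted p = 0.787).

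The KEAP1 difference lay close to the limit. Scaling each array to its median instead of its 75th percentile gave −1.30 (limma adjusted p = 0.0125), past the 2-fold limit. That scaling also moved the median of all genes by −0.39, and relative to that median KEAP1 stood at −0.98 under both scalings. The adjusted p rose to 0.0744 when the fit held only the 4 arrays compared. Without the first or the second hsa-miR-205-5p replicate it was 0.069 and 0.108, with differences of −0.995 and −0.815.

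The KEAP1 probe is printed 10 times on each array, which gives a measure of technical error that the single-spot probes lack. After outlier spots were left out, its spots ranged from 1.60 to 2.08 and from 1.45 to 2.03 on the hsa-miR-205-5p arrays. The control spots ranged from 2.40 to 2.92 and from 2.26 to 2.99, and the hsa-miR-214-3p spots from 2.71 to 2.98 and from 2.496 to 2.97. No kept KEAP1 spot of an hsa-miR-205-5p array thus reached a kept spot of another group, while the 1 outlier spot left out of the first control array, at 0.88, lay below them all. Spots of 1 array are repeats of the same RNA and were averaged before the test.

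**Figure D2:**
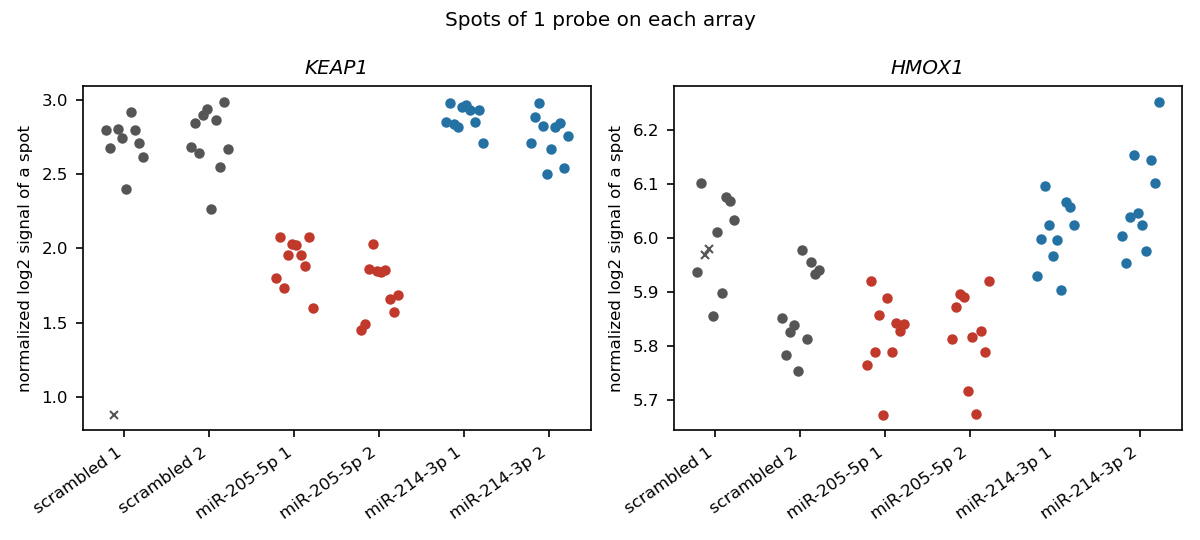
Normalized log2 signal (y axis, each panel with its own range) of the single spots of KEAP1 and HMOX1, which have 10 spots per array, on the 6 arrays (x axis). Crosses mark spots left out as outliers. Among spots that were kept, those of KEAP1 on the hsa-miR-205-5p arrays end at 2.08 and those of the other arrays start at 2.26.

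NFE2L2 itself could not be tested. Its single probe was well above background on 0 of 6 arrays, with a processed signal between 3.09 and 7.54, so the arrays set no level for the NRF2 transcript in any group. The measured values, −2.47 and −2.39 with hsa-miR-205-5p, −3.84 and −2.95 with hsa-miR-214-3p and −4.02 and −4.21 in the control, are those of a dim spot, and no fold is drawn from them. The protein NRF2 is controlled mainly by its degradation, which these arrays do not measure.

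GCLC and GCLM are the catalytic and the modifier subunit of glutamate-cysteine ligase, the rate-limiting enzyme of glutathione synthesis, and SLC7A11 is the subunit of the cystine/glutamate antiporter that imports cystine for it. None of the 3 passed the test in either comparison with the control.

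The level of GCLC was 3.08 and 2.64 with hsa-miR-205-5p, 2.05 and 1.80 with hsa-miR-214-3p, and 3.18 and 2.68 in the control. Here the hsa-miR-214-3p arrays were the low ones, and the hsa-miR-205-5p and control arrays overlapped. GCLC differed from the control by −1.01 with hsa-miR-214-3p (SE 0.26, 95% interval −1.66 to −0.36), 2.01-fold lower, with limma adjusted p = 0.106. With hsa-miR-205-5p the difference was −0.08 (95% interval −0.73 to 0.58, limma adjusted p = 0.852). Set against each other, GCLC was higher with hsa-miR-205-5p by 0.93 (SE 0.26, limma adjusted p = 0.0446), under the 2-fold limit, and that p lay between 0.0739 and 0.214 when any 1 of the 4 arrays compared was left out.

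GCLM had levels of 5.04 and 4.79 with hsa-miR-205-5p, 5.44 and 5.51 with hsa-miR-214-3p, and 5.19 and 5.41 in the control. The hsa-miR-205-5p arrays were the lowest and the hsa-miR-214-3p arrays the highest, without overlap. The difference from the control was −0.39 (95% interval −0.83 to 0.06, limma adjusted p = 0.179) with hsa-miR-205-5p and 0.17 (limma adjusted p = 0.606) with hsa-miR-214-3p. Between the 2 precursors it was −0.56 (limma adjusted p = 0.0638). The subunits of the same enzyme thus had their lowest mean level in different groups, GCLC with hsa-miR-214-3p and GCLM with hsa-miR-205-5p.

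SLC7A11 was the member with the widest replicate spread. Its level was 4.71 and 3.71 with hsa-miR-205-5p, 4.001 and 3.91 with hsa-miR-214-3p, and 3.91 and 3.53 in the control. The difference of 0.49 with hsa-miR-205-5p (95% interval −0.40 to 1.37, limma adjusted p = 0.358) rested on the first replicate, without which it was −0.01. With hsa-miR-214-3p it was 0.23 (limma adjusted p = 0.741).

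HMOX1, or heme oxygenase-1, breaks down heme, and NQO1 is a quinone reductase, and both are much used as readouts of NRF2. The level of HMOX1 was 5.82 and 5.82 with hsa-miR-205-5p, 6.01 and 6.07 with hsa-miR-214-3p, and 6.0 and 5.87 in the control, means of 8 to 10 spots each. Its 3 groups lay within a range of 0.25. The differences from the control were −0.11 (95% interval −0.49 to 0.27, limma adjusted p = 0.619) and 0.11 (limma adjusted p = 0.724), and the latter was −0.06 under median scaling.

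The NQO1 probe was well above background on 1 of 6 arrays, the second control replicate, and so was not tested. Its values were −3.78 and −3.01 with hsa-miR-205-5p, −1.76 and −2.04 with hsa-miR-214-3p, and −2.09 and −1.92 in the control. The hsa-miR-205-5p values were the lowest, but all 6 processed signals lay between 3.04 and 15.4, and the limit of detection exceeded the control mean, so no fold can be given.

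Over the 8 members tested, the comparison of hsa-miR-205-5p with the control gave 1 call in the direction of a fall, TXNRD1, and 0 calls of a rise. Of all 11974 genes tested in that comparison, 7.98% were called lower and 4.78% higher, so 1 member of 8 is not set apart from the background by its count. Regardless of fold, 2 of 8 members had an adjusted p under 0.05, against 21.1% of all genes. Both hsa-miR-205-5p arrays lay below both control arrays for 5 of 8 members, TXNRD1, KEAP1, GCLM, SRXN1 and HMOX1, against 28.6% of all genes, and above both for 0 of 8, against 36.6%. The median difference over the 8 members was −0.26, beside 0.08 over all genes.

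Against the same control arrays, hsa-miR-214-3p gave 0 calls among the 8 members by limma. At an unadjusted p under 0.05 and 2-fold it gave 1, GCLC. The share of all genes at that setting was not counted, so this 1 is not set apart from the background. The methods' t-test gave 0 after adjustment. Of all genes, 2.03% were called lower and 1.09% higher, and 3.3% had an adjusted p under 0.05 at any fold, against 0 of 8 members. The member median was 0.01, beside −0.01 over all genes. Both arrays lay below both controls for 2 members, GCLC and SRXN1, against 30.7% of all genes, and above for 3, KEAP1, GCLM and HMOX1, against 27.7%.

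Between the 2 precursors, TXNRD1 was the 1 of 8 members lower on the hsa-miR-205-5p arrays past both limits and 0 were higher, where 11.3% and 9.18% of all genes were called. At any fold, 3 of 8 had an adjusted p under 0.05, TXNRD1, KEAP1 and GCLC, against 33.9% of all genes. The hsa-miR-205-5p arrays lay below both others for 4 members, TXNRD1, KEAP1, GCLM and HMOX1, against 34.6% of all genes, and above for GCLC and SRXN1, against 45.7%. KEAP1 differed by −0.99 (SE 0.16, limma adjusted p = 0.0109), or 1.99-fold, just short of the limit. It passed that limit at −1.01 when the 75th percentile was taken over probes detected on all arrays, and at −1.04 in the authors' own table of log2 values. TXN, HMOX1, SRXN1 and SLC7A11 differed by between −0.22 and 0.26, with limma adjusted p of 0.305 or above.

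**Figure D3:**
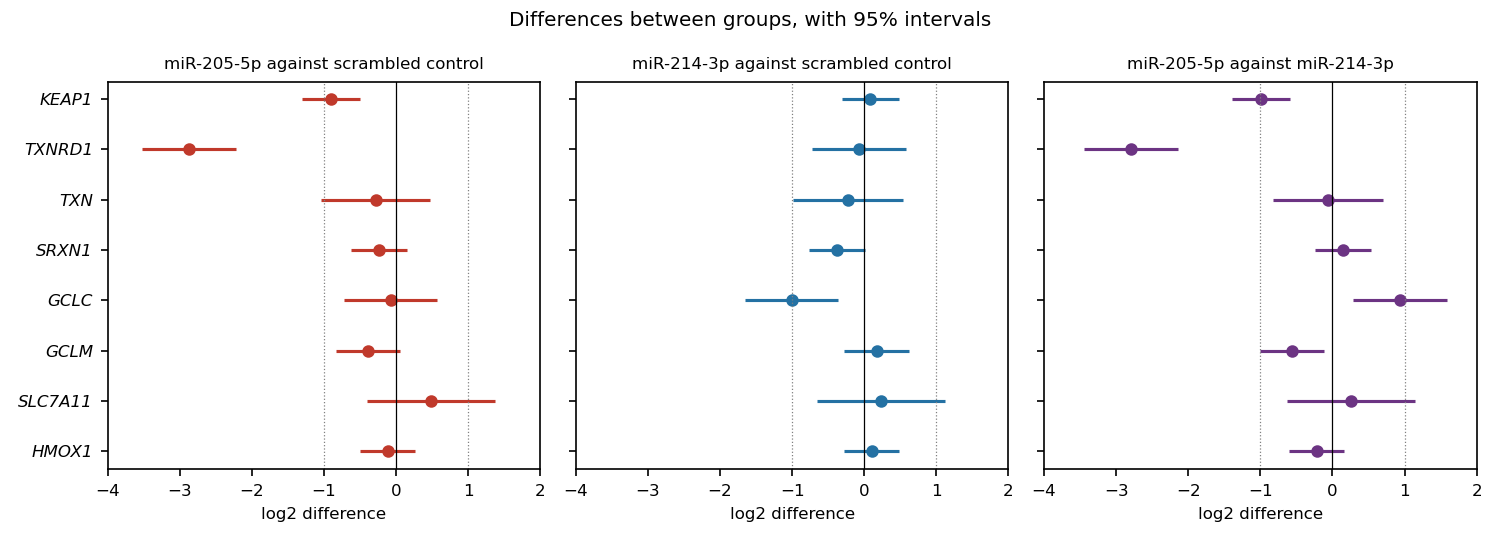
Difference in normalized log2 signal (x axis) of the 8 tested members in the 3 comparisons, with 95% intervals from limma. Dotted lines mark a 2-fold change. TXNRD1 lies at −2.87 and −2.80 in the comparisons that hold hsa-miR-205-5p, and its interval with hsa-miR-214-3p against the control spans 0.

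The error behind these values was uneven. The absolute difference between the replicates of a group, over the 8 tested members, had a median of 0.22 with hsa-miR-205-5p, 0.08 with hsa-miR-214-3p and 0.30 in the control. The largest were those of SLC7A11 with hsa-miR-205-5p, and of TXN and TXNRD1 in the control, 0.70 for TXNRD1. The fall of TXNRD1 with hsa-miR-205-5p was larger than that control spread.

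The promoters were searched for TGACNNNGC, the core of the antioxidant response element, on both strands, because the members share regulation by NRF2. The RefSeq windows ran from 250 bases before to 50 after a gene's start on GRCh38.p14. The set used held 11 windows of 8 of the 10 genes and none of HMOX1 or SLC7A11. The core was present in 4 of these 11 windows, belonging to TXNRD1, GCLM and KEAP1, and in 4687 of all 35116 windows (13.3%). Each match is shown with its flanks and with the core in capitals.
TXNRD1: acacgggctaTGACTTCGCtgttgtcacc
TXNRD1: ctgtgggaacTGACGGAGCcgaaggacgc
TXNRD1: agagtcagaaTGACAAAGCagaaatccac
GCLM: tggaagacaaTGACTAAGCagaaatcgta
KEAP1: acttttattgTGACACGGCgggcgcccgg
KEAP1: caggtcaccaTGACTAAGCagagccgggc
The TXNRD1 matches lie at chr12:104215670-104215698 on the plus strand, chr12:104215761-104215789 on the minus strand and chr12:104286920-104286948 on the minus strand, the last in the window of a second start. Those of GCLM and KEAP1 lie at chr1:93909446-93909474 on the plus strand, chr19:10502807-10502835 on the minus strand and chr19:10502784-10502812 on the plus strand. Such a match is a description of letters and not a measured site. Of the 3 genes with the core, TXNRD1 was called and GCLM and KEAP1 were not. Sequence outside these windows was not searched, so the other members are not shown to lack the core.

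Beyond the members, 84 further genes of the pathway were listed in 7 groups by function, of which 78 were tested. With hsa-miR-205-5p against the control, 11 were called lower (14.1%), 3 higher (3.85%) and 64 were not called, with a median difference of −0.12. These shares stand beside 7.98% and 4.78% of all genes. Under median scaling 22 were called lower (28.2%), where 15.7% of all genes were called lower and 1.77% higher. Without the second hsa-miR-205-5p replicate it was 0, and FTL, PGD, PTGR1, PRDX2, CHAC1, BACH1 and ABCB6 then had limma adjusted p between 0.0559 and 0.112. With hsa-miR-214-3p the counts were 1 lower (1.28%) and 0 higher, beside 2.03% and 1.09% of all genes, and the 0 was also 0 at an unadjusted p under 0.05 and by the methods' t-test after adjustment.

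**Figure D4:**
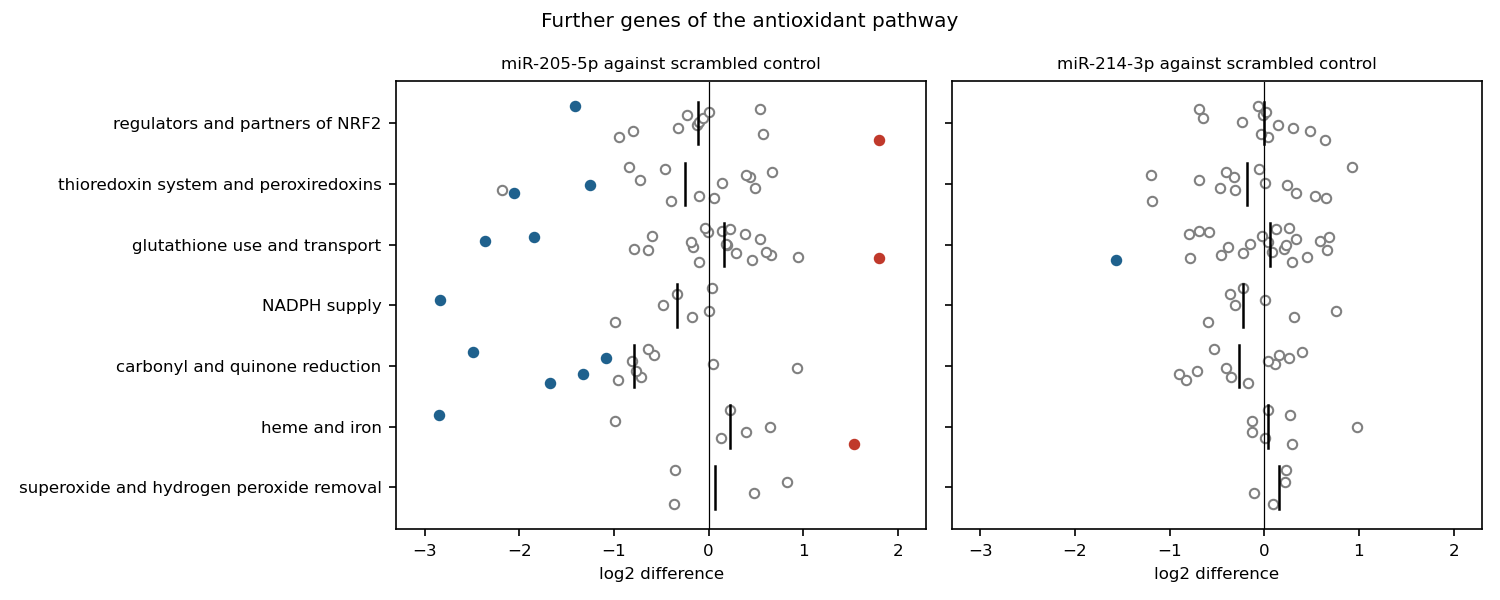
Difference in normalized log2 signal (x axis) of the 78 tested further genes in 7 groups (y axis), for each precursor against the scrambled control. Blue points were called lower, red points higher and open points were not called, and black bars are group medians. The lowest median with hsa-miR-205-5p, −0.79, is that of carbonyl and quinone reduction.

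In the thioredoxin system and its peroxiredoxins, 2 of 14 genes (14.3%) were called lower with hsa-miR-205-5p against the control and 0 higher, beside 7.98% and 4.78% of all genes. PRDX2, a cytosolic peroxiredoxin that thioredoxin keeps reduced, was at 2.21 and 2.33 with hsa-miR-205-5p, 4.60 and 4.74 with hsa-miR-214-3p and 4.18 and 4.48 in the control, a difference from the control of −2.05 (SE 0.18, limma adjusted p = 0.008). PRDX5 differed by −1.26. TXNIP, which binds and inhibits thioredoxin, was higher with hsa-miR-205-5p than with hsa-miR-214-3p by 1.59 (SE 0.28, limma adjusted p = 0.0132). Against the control it passed in neither group, with differences of 0.39 (limma adjusted p = 0.345) for hsa-miR-205-5p and −1.19 (limma adjusted p = 0.0883) for hsa-miR-214-3p.

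In NADPH supply, from which TXNRD1 draws its electrons, 1 of 7 genes (14.3%), PGD, passed as lower with hsa-miR-205-5p and 0 as higher, where 7.98% and 4.78% of all genes did. PGD, an enzyme of the pentose phosphate pathway that makes NADPH, was at 1.71 and 1.93 with hsa-miR-205-5p, 4.57 and 4.75 with hsa-miR-214-3p and 4.35 and 4.95 in the control. It fell by 2.84 (SE 0.25, limma adjusted p = 0.008) against the control, close to the TXNRD1 difference.

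Carbonyl and quinone reduction had 4 of 12 genes (33.3%) called lower with hsa-miR-205-5p, 0 higher and a median of −0.79, beside 7.98%, 4.78% and a median of 0.08 over all genes. PTGR1, a reductase of prostaglandins and of lipid aldehydes, was at 0.19 and 0.15 with hsa-miR-205-5p, 3.14 and 2.99 with hsa-miR-214-3p and 1.88 and 3.45 in the control, a difference from the control of −2.49 (SE 0.50, limma adjusted p = 0.0276). The call of PTGR1 was lost without either hsa-miR-205-5p replicate (limma adjusted p = 0.0947 and 0.112) and without either hsa-miR-214-3p replicate (0.0691). AKR1B1 differed by −1.68, AKR1C3 by −1.33 and NQO2, a relative of NQO1, by −1.09. AKR1C3 belongs to a family of near-identical genes whose probes may share signal, so its value is uncertain.

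Among 7 genes of heme and iron, 1 was called lower and 1 higher with hsa-miR-205-5p (14.3% each, beside 7.98% and 4.78% of all genes). FTL, the light chain of the iron store ferritin, was at 5.77 and 5.57 with hsa-miR-205-5p, 8.78 and 8.79 with hsa-miR-214-3p and 8.28 and 8.76 in the control, a difference from the control of −2.85 (SE 0.21, limma adjusted p = 0.008). Another FTL probe gave −2.75, also called, and one more −0.73 (limma adjusted p = 0.0815), so its probes disagree in size. ABCB6, a porphyrin transporter, rose by 1.53 (SE 0.22, limma adjusted p = 0.0129), and its call was lost without either hsa-miR-205-5p replicate (limma adjusted p = 0.0567 and 0.0588).

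Of the genes of glutathione use and transport, 2 of 22 (9.09%) were called lower and 1 (4.55%) higher with hsa-miR-205-5p, near the 7.98% and 4.78% of all genes. GSTM4 differed by −1.84. GSTM2, whose probe neither hsa-miR-205-5p array detected above background, was kept only through the groups where it is high, and without it the calls of a fall were 10 among all further genes. With its hsa-miR-205-5p values set to the lowest detected signal of each array, GSTM2 was 4.39-fold lower than in the control. That fold is not a strict bound, since undetected probes can lie above that signal. GSTM genes are near-identical and their probes may share signal, so both values are uncertain. CHAC1, which degrades glutathione, differed by 1.80 (SE 0.23, limma adjusted p = 0.0108) at its brightest probe and by −0.04 at its other probe, so the call held for 1 of 2 probes. With hsa-miR-214-3p, the export pump ABCC3 was the further gene called, at −1.57 (SE 0.16, limma adjusted p = 0.0263), while its second probe gave −0.96 (limma adjusted p = 0.0798). With hsa-miR-205-5p these probes gave 0.46 (not called) and −1.28 (called lower, limma adjusted p = 0.0176), so they disagree. Without 1 array the hsa-miR-214-3p difference stayed between −1.67 and −1.47, and in the 5 of 6 such fits in which ABCC3 was not called, limma called 0 genes of the whole array in this comparison.

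Of 12 regulators and partners of NRF2, 1 was called lower and 1 higher with hsa-miR-205-5p, 8.33% each, beside 7.98% and 4.78% of all genes. BACH1, a repressor that competes with NRF2 for antioxidant response elements, was at 4.15 and 4.06 with hsa-miR-205-5p, 2.94 and 2.96 with hsa-miR-214-3p and 2.38 and 2.23 in the control, a rise of 1.80 (SE 0.16, limma adjusted p = 0.008). SQSTM1, or p62, which draws KEAP1 into autophagy, differed by −1.41. Of 4 genes of superoxide and hydrogen peroxide removal, limma called 0 in each of the 3 comparisons and 0 differed by 2-fold. With so few genes such a count is not set apart from the shares of all genes, which ran from 1.09% to 11.3% over directions and comparisons.

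Between the 2 precursors, 13 of the 78 further genes were called lower with hsa-miR-205-5p (16.7%) and 10 higher (12.8%), beside 11.3% and 9.18% of all genes. FTL at −3.12, PTGR1 at −2.90, PGD at −2.84 and GSTM4 at −2.53 had the lowest differences among called genes whose probe each of the 4 arrays compared detected above background. GSTM2, not detected above background on the hsa-miR-205-5p arrays, was 6.61-fold lower with those values set to the lowest detected signal, again not a strict bound. Without it and TXNRD3, detected on 1 of 2 hsa-miR-205-5p arrays, the 13 were 11. CHAC1 at 2.59, ABCC3 at 2.03, TXNIP at 1.59 and CBR1, a carbonyl reductase, at 1.34 had the highest by the same rule. The other probes of CHAC1 and ABCC3 gave 0.83 and −0.32 and were not called, and those of FTL gave −3.17, called, and −0.82, not called. The calls of PTGR1 and CBR1 were lost in each fit without 1 of the 4 arrays compared, and that of TXNIP in each of them except the one without the first hsa-miR-214-3p replicate.

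The TXNRD1 profile was compared with those of 10210 genes well above background on all 6 arrays, by the root mean square distance between profiles centred on their own mean. The nearest was RPS3, a ribosomal protein gene, at 0.05, followed by NSMCE1, a subunit of the SMC5/6 complex, at 0.05, the tyrosyl-tRNA synthetase gene YARS1 at 0.09, PGD at 0.10 and the proteasome gene PSMC5 at 0.12. Their differences from the control with hsa-miR-205-5p ranged from −2.97 to −2.73, and with hsa-miR-214-3p from −0.06 to 0.10. That all 5 shared the low hsa-miR-205-5p arrays and the lower first control replicate follows from choosing them by this distance, and is no separate result. NSMCE1 has a second probe that did not pass the background condition and gave 0.17. Over the whole array, 24 other genes had an hsa-miR-205-5p difference within 0.1 of that of TXNRD1.

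**Figure D5:**
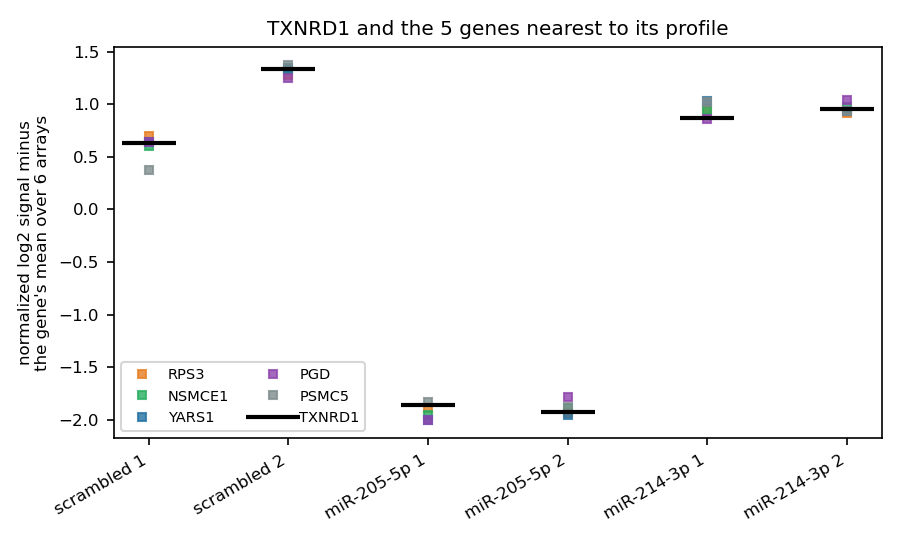
Normalized log2 signal centred on each gene's mean (y axis) over the 6 arrays (x axis) for TXNRD1, drawn as black bars, and its 5 nearest genes RPS3, NSMCE1, YARS1, PGD and PSMC5. All lie low on both hsa-miR-205-5p arrays and lower on the first than on the second control array, which follows from choosing the 5 by their distance to TXNRD1.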

How the data were processed

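The authors scanned the one-color arrays and deposited Agilent Feature Extraction 11.0 output, in which the processed signal is an intensity per spot, background subtracted and detrended. They also deposited log2 values per probe, with identical sorted columns (median 3.49), used here as an alternative. The files name probes by accession, and 83.3% of kept probes matched a symbol among the RefSeq genes.

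Control spots and outlier spots (245 to 463 per array) were left out, spots of a probe averaged, and each array's 75th percentile (signal 35.1 to 58.0) subtracted on the log2 scale. Of 50599 probes, 18468 were kept because the scanner's flag put them well above background on both arrays of a group, and a gene was represented by its brightest probe, giving 11974 genes. limma 3.58.1 in R 4.3.3, with files read by the data.table package (1.17.8), was fitted to all 6 arrays, with Benjamini-Hochberg adjustment over kept probes. A call needed adjusted p under 0.05 and 2-fold. Precision is limited by how few arrays there are, and scripts were tested on simulated data. Of 100 simulated 3-fold changes against the control, 56 were recovered for hsa-miR-205-5p and 46 for hsa-miR-214-3p. A gene that was not called is thus not shown to be unchanged. Plots used matplotlib 3.10.9.

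The members and lists were chosen with earlier results of these data known. Named further genes were the 4 lowest and 4 highest called per comparison among probes detected above background on every array compared, and others are named by call. Alternatives were other scalings, normexp with offset 50 (on the median signal, since the files hold no mean signal), quantile normalization, the authors' log2 values, other filters, fits and probe rules, a replicate block, the methods' t-test, and leaving out each array. Slide and scan blocks could not be fitted, as all arrays share 1 of each. The result for 1 marker gene is not reported here.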

Additional observations from a re-analysis of the deposited data

How the results depend on the processing

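The fall of TXNRD1 with hsa-miR-205-5p against the control kept its direction in every setting run, between −3.26 (median scaling) and −2.01 (normexp), and was −3.22 to −2.52 over fits that left out 1 array. It lost its call without the second hsa-miR-205-5p replicate (−2.84) and by the methods' t-test after adjustment (−2.87). Its hsa-miR-214-3p difference ran from −0.42 to 0.28 over fits without 1 array. The members called lower with hsa-miR-205-5p against the control, 1 in the report, were 2 under median scaling or no fold limit, 0 by the adjusted t-test and 0 to 1 without 1 array. Against hsa-miR-214-3p they were 2 under median scaling, the 75th percentile of detected probes, the authors' table or no fold limit, and 1 to 2 without 1 array, and without a fold limit 1 was higher. With hsa-miR-214-3p against the control 1 was lower at unadjusted p.

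Of the further genes, those lower with hsa-miR-205-5p against the control were 22 under median scaling, 5 without the filter, 7 with only the 4 arrays compared, 19 without a fold limit, 0 by the adjusted t-test and 0 to 15 without 1 array. Those higher were 1 without the filter, 6 without a fold limit, 0 by the adjusted t-test and 0 to 5 without 1 array. With hsa-miR-214-3p against the control, 0 were lower without the filter, with only 4 arrays, with the replicate block and by the adjusted t-test, 2 at unadjusted p, with all probes and with the mean of probes, and 0 to 2 without 1 array, with 0 to 3 higher. Between the precursors, those higher were 6 under median scaling, 5 under normexp, 3 without the filter and 2 to 10 without 1 array, and those lower 5 to 14.

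The counts above stand without the share of all genes at each setting, so their changes are not shown to be specific to the pathway genes. At any fold, 21.1% of all genes had limma adjusted p under 0.05 with hsa-miR-205-5p against the control, both directions together. Under median scaling, 15.7% of all genes were called lower in that comparison. The number of all genes called in it also changed with the array left out. Signs turned in comparisons that passed no test. With hsa-miR-205-5p against the control, GCLC was 0.045 under normexp and −0.325 to 0.174 without 1 array, SLC7A11 −0.011 to 0.984 and TXN −0.649 to 0.081 without 1 array. With hsa-miR-214-3p against the control, HMOX1 was −0.06 and KEAP1 −0.079 under median scaling, and TXN ran from −0.586 to 0.144 without 1 array. Between the precursors, SRXN1 was −0.018 under quantile normalization, −0.079 under median scaling and −0.022 in the authors' log2 values, and without 1 array SLC7A11 ran from −0.242 to 0.752 and TXN from −0.311 to 0.185. The causes were not tested.

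Same-numbered replicates had deviations correlated at 0.11, 0.01 and −0.05, so the numbers are not shown to pair arrays. With the replicate block TXNRD1 against the control kept −2.87 (limma adjusted p = 0.0255), and no member's call changed. Dim probes, NFE2L2 and NQO1 among them, limit what signal over background can show.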

Other observations

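TXNRD1 is a selenoprotein, so the other selenoprotein genes were listed too, after the results above had been seen. Of 25 listed, 18 were tested, and with hsa-miR-205-5p against the control 2 were called lower, TXNRD1 and SELENOS, and 0 higher, where 7.98% and 4.78% of all genes were called. TXNRD1 prompted the list, so it adds nothing to that count. The list had a median difference of 0.14 beside 0.08 over all genes. SELENOS, a selenoprotein of the endoplasmic reticulum membrane, was at 2.74 and 2.63 with hsa-miR-205-5p, 4.91 and 4.80 with hsa-miR-214-3p and 3.85 and 4.35 in the control, a difference of −1.42 (SE 0.22, limma adjusted p = 0.0148). GPX4, which reduces lipid peroxides, differed by −0.79 (limma adjusted p = 0.0342), under the 2-fold limit, and TXNRD2, the mitochondrial relative of TXNRD1, by −0.46 (limma adjusted p = 0.277). At the other end, GPX1, SELENOK, SELENOW and SELENOF differed by 0.61, 0.60, 0.57 and 0.52 and were not called, and 8 of the 18 lay below 0. With hsa-miR-214-3p limma called 0 of 18, beside 2.03% lower and 1.09% higher of all genes.

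Between the precursors 4 of the 18 were called lower with hsa-miR-205-5p, TXNRD1, SELENOS at −2.17, TXNRD3 at −1.77 and GPX3 at −1.31, and 0 higher, beside 11.3% and 9.18% of all genes. The TXNRD3 probe was well above background on 1 of 2 hsa-miR-205-5p arrays and was kept only through the other groups, where it is higher. Its difference is therefore uncertain, and 3 calls with full detection remain. TXNRD1, which prompted the list, is among those 3 and adds nothing to the count. Of 4 tested factors that insert selenocysteine, the comparison of hsa-miR-205-5p with the control called 1 lower and 0 higher, beside 7.98% and 4.78% of all genes, with a list median of 0.28. PSTK, SEPHS1 and EEFSEC differed by 0.08, 0.49 and 0.76 and were not called. SECISBP2, which binds the element in selenoprotein transcripts that recodes a stop codon, differed by −1.37 with hsa-miR-205-5p, but its probe was well above background on 1 of 2 hsa-miR-205-5p arrays and was likewise kept only through the groups where it is higher, so that the difference is uncertain. Its difference with hsa-miR-214-3p was 0.44.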
